A study of Canis lupus familiaris with 13 samples.

Results

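Glypicans and syndecans are the main families of heparan sulfate proteoglycans of the cell surface, and their transcripts are described here in primary soft tissue sarcomas of dogs. Members were the rows whose gene symbol in the annotation of the array is GPC1 to GPC6 or SDC1 to SDC4, with every probe set of a gene kept (a probe set is a group of short probes that read 1 transcript). This gave 19 of the 42924 probe sets tested, 11 for the 6 glypicans and 8 for the 4 syndecans, so all 10 genes were measured. RefSeq's genes of the dog assembly UU_Cfam_GSD_1.0 hold the array's identifiers of 9 of these genes, and hold SDC2 under another identifier than the array's. The family was chosen by the differences of GPC6 and SDC1 between the 2 groups, which were known beforehand, so that difference is described for these 2 genes with no p-value, and nothing is supported with it. Counts of probe sets past a threshold include both genes and are printed beside the share of all probe sets for that reason. The other 8 genes came in by name as the remaining members.

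The metastatic group held 5 tumours (MET1 to MET5) and the non-metastatic group 8 (NM1 to NM8), which had formed no metastasis over 1 year or longer. All were untreated primary tumours, and RNA of whole tissue was read on an Affymetrix canine array as log2 intensities, 1 array per tumour. Breed and age were not used here. The labels do not say whether each tumour came from its own dog, so the p-values speak only for the variation among these arrays, which may be technical. In bulk tissue, fewer cells of a type and less RNA per cell cannot be told apart.

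Both families carry long heparan sulfate chains on a core protein. Glypicans are held in the outer membrane leaflet by a glycosylphosphatidylinositol anchor and bring hedgehog, Wnt, bone morphogenetic protein and fibroblast growth factor ligands to their receptors, or hold them away. Syndecans span the membrane, bind growth factors and matrix through their chains, and reach the actin cytoskeleton through a short cytoplasmic tail. In connective tissue the syndecans of fibroblasts serve in adhesion to matrix, while SDC1 is best known from epithelia and plasma cells.

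Array medians lay between 6.71 and 6.94, and values of the mesenchymal markers VIM and COL1A1 were at or above 12.05 in all 13 samples, while of the 5 measured markers of epithelium EPCAM, CDH1 and CLDN4 never exceeded 7.14, and KRT8 and KRT18 reached 8.84 and 7.53 in non-metastatic samples. Bacterial poly-A transcripts, added to RNA before labelling, gave signal at both ends in 9 samples (MET1 to MET5 and NM5 to NM8), no signal in NM1, NM3 and NM4, and a 3′ minus 5′ gap of 3.35 in NM2, against at most 1.16 in the others. Probe sets for these transcripts gave values of 2.63 to 7.16 (median 4.45) in the 3 samples without them, which shows how high a value can be without its target. The mark of 7.16 used below is the highest of these readings, so a value under it is undecided rather than shown to be absent. Results are therefore also given within the 9 samples with signal at both ends, the only such set that holds both groups. For ACTB, 3′ probes exceeded 5′ probes by 1.96 ± 0.59 (SD, n = 5) in metastatic samples and by 1.47 ± 0.92 (SD, n = 8) in non-metastatic samples, a gap that widens as RNA degrades. Of all 13 samples this gap was widest in NM2, at 3.14.

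**Figure D1:**
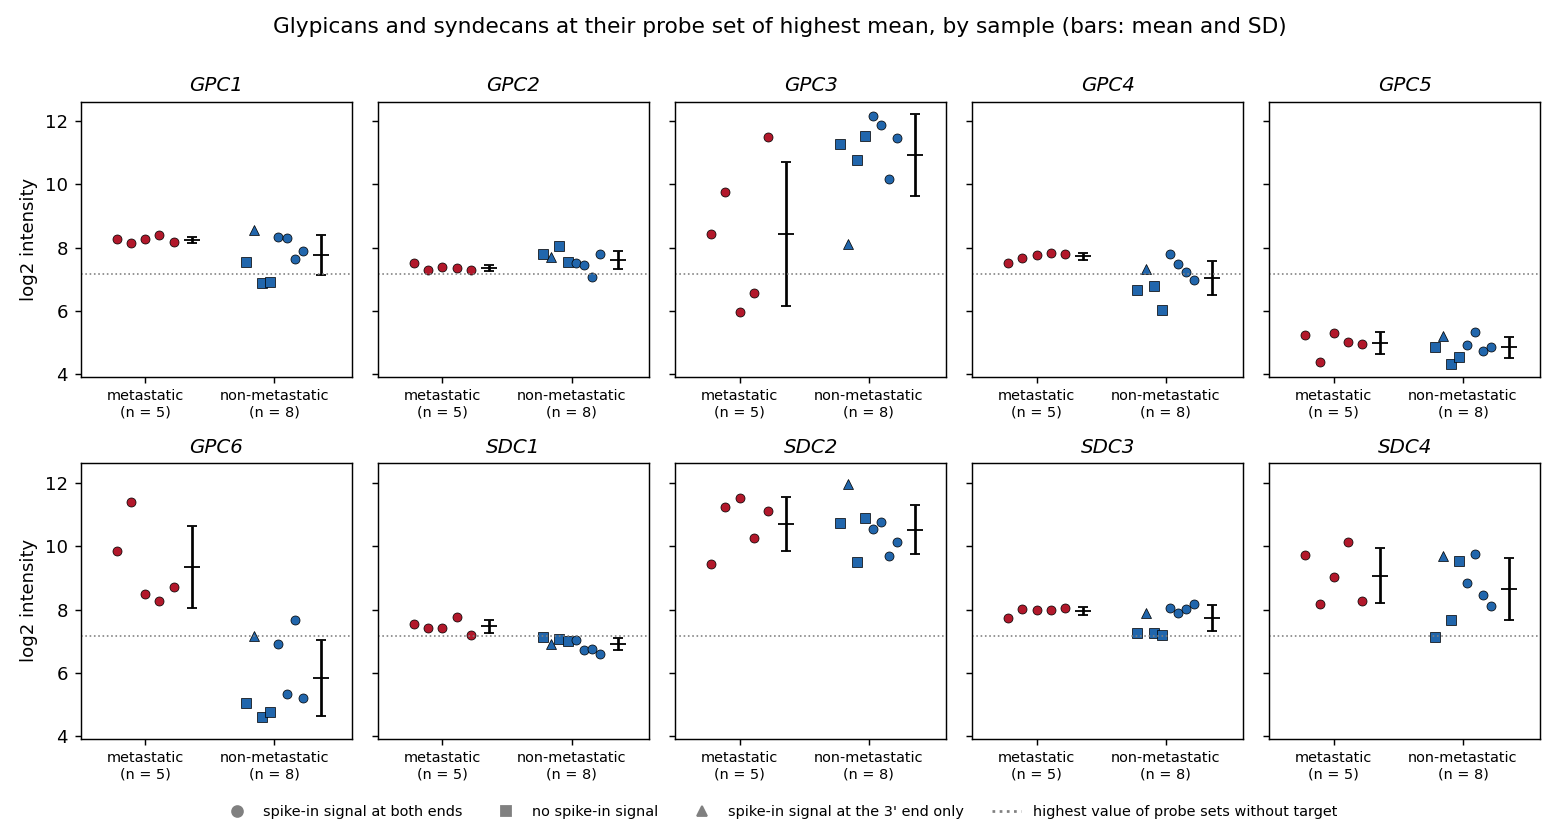
Log2 intensity of each of the 10 genes at its probe set of highest mean, with metastatic samples in red on the left and non-metastatic samples in blue on the right. Bars give the mean and SD, marker shapes give the spike-in signal, and the dotted line marks 7.16, the highest value of probe sets without their target; GPC6 and SDC1 are the genes whose groups do not overlap.

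GPC6 was higher in every metastatic tumour than in any non-metastatic one. GPC6 encodes a glypican whose loss in humans causes a skeletal growth disorder. At the probe set of highest mean, GPC6 measured 9.84 in MET1, 11.40 in MET2, 8.48 in MET3, 8.27 in MET4 and 8.70 in MET5, against a lowest value of 4.60, a median of 5.28 and a highest of 7.66 in the non-metastatic samples. MET2 and MET1 stood above the other metastatic tumours, and NM7, NM2 and NM5 (7.66, 7.16 and 6.92) stood above the other non-metastatic ones. The mean was 9.34 ± 1.30 (SD, n = 5) in metastatic and 5.84 ± 1.21 (SD, n = 8) in non-metastatic tumours, a difference of 3.50 ± 0.63 (SE, limma). Only NM7 among the non-metastatic samples lay above 7.16, so the size of the difference is not exact.

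The other 2 probe sets of GPC6 gave the same separation. The second ran from 6.71 to 9.56 in metastatic and from 4.89 to 6.45 in non-metastatic samples, with a difference of 2.21 ± 0.44 (SE), and the third ran from 6.50 to 9.71 and from 3.72 to 6.27 in these groups, with a difference of 2.76 ± 0.55 (SE). Above 7.16 lay 3 of the 5 metastatic samples at the second and 2 at the third, and 0 of the 8 non-metastatic samples at either. Much of this separation thus lies among values that probe sets reach without their target, and the sizes are not exact. In all 3 probe sets MET2 was highest, MET1 next and MET4 lowest of the metastatic tumours. Pearson correlations between the probe sets over the 13 samples were 0.977, 0.943 and 0.972, and 0.831 to 0.933 after each group's mean was subtracted. Within the 9 samples with spike-in signal at both ends the differences were 3.06 ± 0.74, 2.11 ± 0.57 and 2.61 ± 0.71 (SE). These 9 are a part of the 13 samples, so groups apart over all samples could not overlap there. Non-metastatic samples with spike-in signal at both ends averaged 6.28 for GPC6 and those without it 4.80, a difference of 1.48 ± 0.59 (SE) that was not past the threshold (limma adjusted p = 0.109).

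GPC5 and GPC6 lie next to each other in RefSeq's gene table of UU_Cfam_GSD_1.0. GPC5, a glypican known from rhabdomyosarcoma in humans, showed no separation of the groups. It measured 5.23, 4.40, 5.32, 5.03 and 4.96 in MET1 to MET5, against 4.32 to 5.35 with a median of 4.86 in non-metastatic samples. All 13 values lay below 7.16, so the array does not tell GPC5 apart from a transcript without signal, and the difference was 0.13 ± 0.19 (SE, limma adjusted p = 0.686, 95% interval -0.28 to 0.54).

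GPC3 had the widest spread of levels among metastatic tumours of the 10 genes and a mean below that of the non-metastatic ones. GPC3 is a fetal growth regulator that many liver tumours express again. At its probe set of highest mean it measured 8.43, 9.75, 5.97, 6.57 and 11.49 in MET1 to MET5, against a lowest value of 8.11, a median of 11.39 and a highest of 12.17 in non-metastatic samples. MET3 and MET4 lay below 7.16, MET5 lay among the non-metastatic values, and NM2 was the lowest of the non-metastatic samples, the next being NM7 at 10.16. Means were 8.44 ± 2.27 (SD, n = 5) in the metastatic group and 10.92 ± 1.30 (SD, n = 8) in the non-metastatic group.

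The difference of -2.48 ± 0.87 (SE) at that probe set of GPC3 did not pass the test (limma adjusted p = 0.110), nor did that of -2.52 ± 0.76 (SE) at the other (adjusted p = 0.0724). These calls changed when NM2 or MET5 was left out. Without NM2, whose spike-in gap was 3.35, both probe sets fell in metastatic tumours, with differences of -2.88 and -2.96 (limma adjusted p = 0.0372 and 0.0119), and without MET5 they fell with differences of -3.24 and -3.105 (adjusted p = 0.0481 and 0.0446). Calls over all probe sets moved as well, from 2104 to 4478 without NM2 and to 982 without MET5. In the other 11 fits that left out 1 sample neither passed, and with arrays weighted by their quality both did (adjusted p = 0.0206 and 0.0114). With the spike-in set as a block, which gives NM2 a term of its own, neither passed (-2.98 and -2.57, limma adjusted p = 0.110 and 0.0723). That block leaves the group difference to the 9 samples with spike-in signal at both ends, so a fit of these 9 alone gives the same estimates. Within them the differences were -2.98 ± 1.06 and -2.57 ± 0.78 (SE, limma adjusted p = 0.166 and 0.115). The 2 probe sets correlated at 0.936 over the 13 samples.

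**Figure D2:**
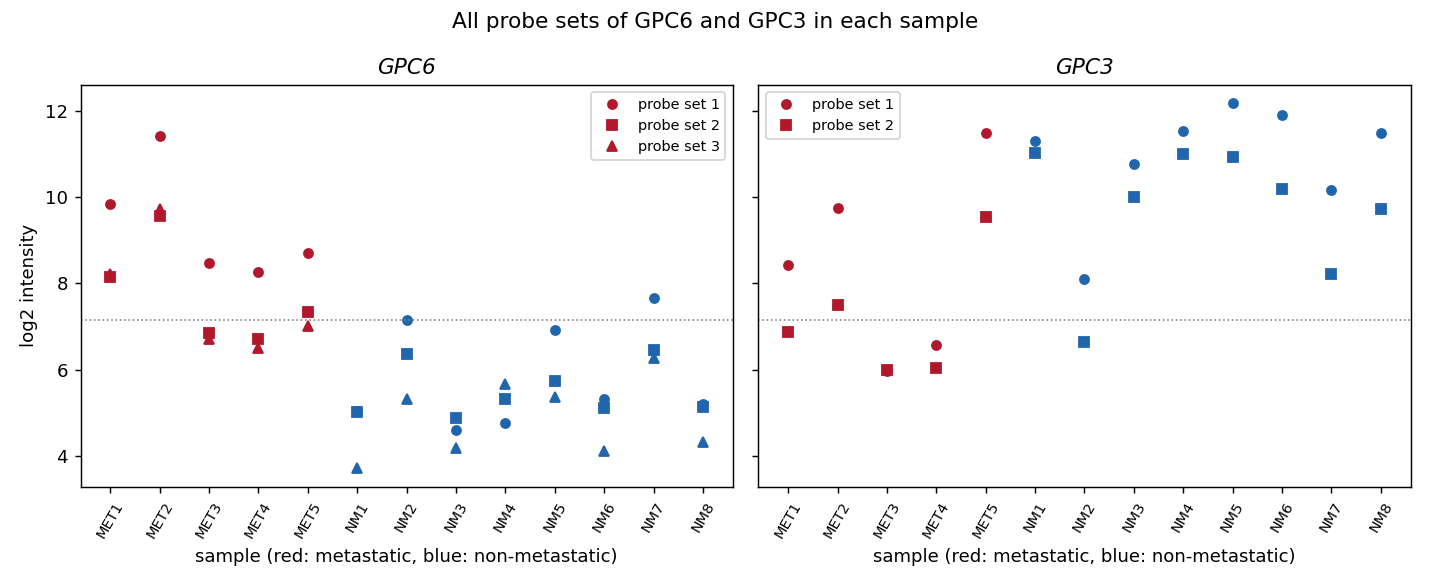
Log2 intensity at every probe set of GPC6 (left panel) and GPC3 (right panel) in each sample, metastatic samples in red before non-metastatic samples in blue, with marker shape for the probe set and a dotted line at 7.16. GPC6 is highest in MET2 at all 3 probe sets, and GPC3 is low in MET3, MET4 and NM2 at both of its probe sets.

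The order of the tumours differed between GPC6 and GPC3. MET3 and MET4 had the lowest GPC3 of all samples (5.97 and 6.57) with GPC6 at 8.48 and 8.27. MET5 had GPC3 at 11.49 and GPC6 at 8.70, and MET2 had GPC3 at 9.75 and GPC6 at 11.40. Of the non-metastatic samples, NM2 and NM7 had the lowest GPC3 (8.11 and 10.16) and the highest GPC6 (7.16 and 7.66). Levels of different probe sets are not comparable with each other, so only the order of samples within a gene is read here.

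GPC4, which lies near GPC3 on the same chromosome with LOC102155575 between them in that table, is a glypican known from developing kidney and brain. It measured 7.53, 7.67, 7.78, 7.83 and 7.81 in MET1 to MET5, against 6.04 to 7.81 with a median of 7.10 in non-metastatic samples. The metastatic values lay close together (SD 0.12, n = 5) at the upper end of the non-metastatic range (SD 0.55, n = 8). The difference of 0.68 ± 0.24 (SE) did not pass (limma adjusted p = 0.110, 95% interval 0.17 to 1.19), nor did that of 0.97 ± 0.33 (SE) at the other probe set (adjusted p = 0.103), and no fit without 1 sample passed for either. At the other probe set MET5, at 7.19, was the only sample above 7.16, so the size of its difference is not exact. Within the 9 samples with spike-in signal at both ends the 2 differences were 0.35 and 0.78 (adjusted p = 0.267 and 0.135).

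GPC1, the most widely made glypican, measured 8.14 to 8.39 in metastatic samples and 6.90 to 8.56 with a median of 7.77 in non-metastatic samples. Its difference of 0.49 ± 0.27 (SE) did not pass (limma adjusted p = 0.273), and the other probe set differed by -0.12 ± 0.18 (SE, adjusted p = 0.705), with all of its values at or below 6.50. The 2 probe sets of GPC1 did not move together (Pearson r = -0.171 over 13 samples), so the gene rests on 1 of them. GPC2, known from the developing nervous system, measured 7.29 to 7.51 in metastatic and 7.06 to 8.05 in non-metastatic samples, a difference of -0.25 ± 0.15 (SE, adjusted p = 0.308).

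SDC1 was the syndecan whose groups did not overlap. It measured 7.55, 7.41, 7.41, 7.77 and 7.21 in MET1 to MET5, against a lowest value of 6.60, a median of 6.95 and a highest of 7.12 in non-metastatic samples. The gap between the groups, from 7.21 in MET5 to 7.12 in NM1, was narrow, and all 8 non-metastatic values lay below the 7.16 that probe sets reach without their target. The mean was 7.47 ± 0.21 (SD, n = 5) in metastatic and 6.90 ± 0.19 (SD, n = 8) in non-metastatic tumours, a difference of 0.57 ± 0.13 (SE) that was 0.69 ± 0.14 (SE) within the 9 samples with spike-in signal at both ends. The difference was 0.67 with NM1, NM3 and NM4 left out and 0.44 among replicates 1 to 5 of both groups. SDC1 is read by 1 probe set, so no other probe set could be set beside it.

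Markers of the cells best known for SDC1 are given beside it. The epithelial list had 5 of 8 markers measured, with a mean log2 level per sample of 3.99 to 4.98 in metastatic and 4.52 to 5.92 in non-metastatic samples, and of its genes 0 passed higher and KRT8 passed lower (limma adjusted p = 0.0468). KRT8 measured 0.66 to 2.28 in metastatic samples and 3.08 to 8.84 in non-metastatic samples, above 7.16 in 2 of 13, so no size is given. The plasma cell list had 5 of 8 markers measured, at 7.99 to 8.70 in metastatic and 7.53 to 8.75 in non-metastatic samples, and 0 passed (1 higher and 1 lower at an unadjusted p of 0.05), with JCHAIN at 8.14 to 9.35 and 7.75 to 9.28 in these groups. EPCAM, CDH1 and CLDN4 lay above 7.16 in 0 of 13 samples and KRT18 in 1, so the array hardly tells the epithelial markers apart from transcripts without signal. Of the plasma cell markers, JCHAIN and XBP1 lay above 7.16 in all 13 samples, POU2AF1 in 10, PRDM1 in 8 and CD38 in 4. The part of these cells in the level of SDC1 was not tested. Beside GPC6, 0 of 7 measured skeletal muscle markers passed in limma, nor at an unadjusted p of 0.05, with list means of 6.67 to 8.26 in metastatic and 6.31 to 7.06 in non-metastatic samples. Of 4 measured nerve sheath markers 0 passed in limma (1 higher at an unadjusted p of 0.05), with list means of 6.82 to 7.89 in metastatic and 6.54 to 6.99 in non-metastatic samples. The part of these cells in the level of GPC6 was not tested.

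SDC2, the syndecan of fibroblasts and other mesenchymal cells, measured 9.44, 11.25, 11.51, 10.26 and 11.12 in MET1 to MET5, against 9.50 to 11.96 with a median of 10.63 in non-metastatic samples. The groups overlapped over nearly their whole ranges, with NM2 highest and MET1 lowest. The difference of 0.19 ± 0.41 (SE) did not pass (limma adjusted p = 0.792, 95% interval -0.69 to 1.08) and was -0.06 with the ACTB value as a covariate. Its 3 probe sets moved together (Pearson r of 0.964 to 0.982 over 13 samples), and the other 2 differed by 0.32 and 0.04.

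SDC4, a component of focal adhesions, measured 9.72, 8.19, 9.03, 10.13 and 8.28 in MET1 to MET5, against 7.13 to 9.74 with a median of 8.66 in non-metastatic samples. Both groups held high and low tumours, MET4, NM6 and MET1 being the highest. The difference was 0.42 ± 0.48 (SE, limma adjusted p = 0.602, 95% interval -0.60 to 1.44). Of the other 2 probe sets, 1 followed this order (r = 0.891) and 1 hardly varied, at 8.22 to 8.46 in metastatic and 7.99 to 8.60 in non-metastatic samples (r = 0.668 with the first). SDC3, a syndecan of nerve and muscle, measured 7.74 to 8.04 in metastatic and 7.19 to 8.18 in non-metastatic samples, a difference of 0.24 ± 0.19 (SE, adjusted p = 0.449) that was -0.08 within the 9 samples with spike-in signal at both ends.

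**Figure D3:**
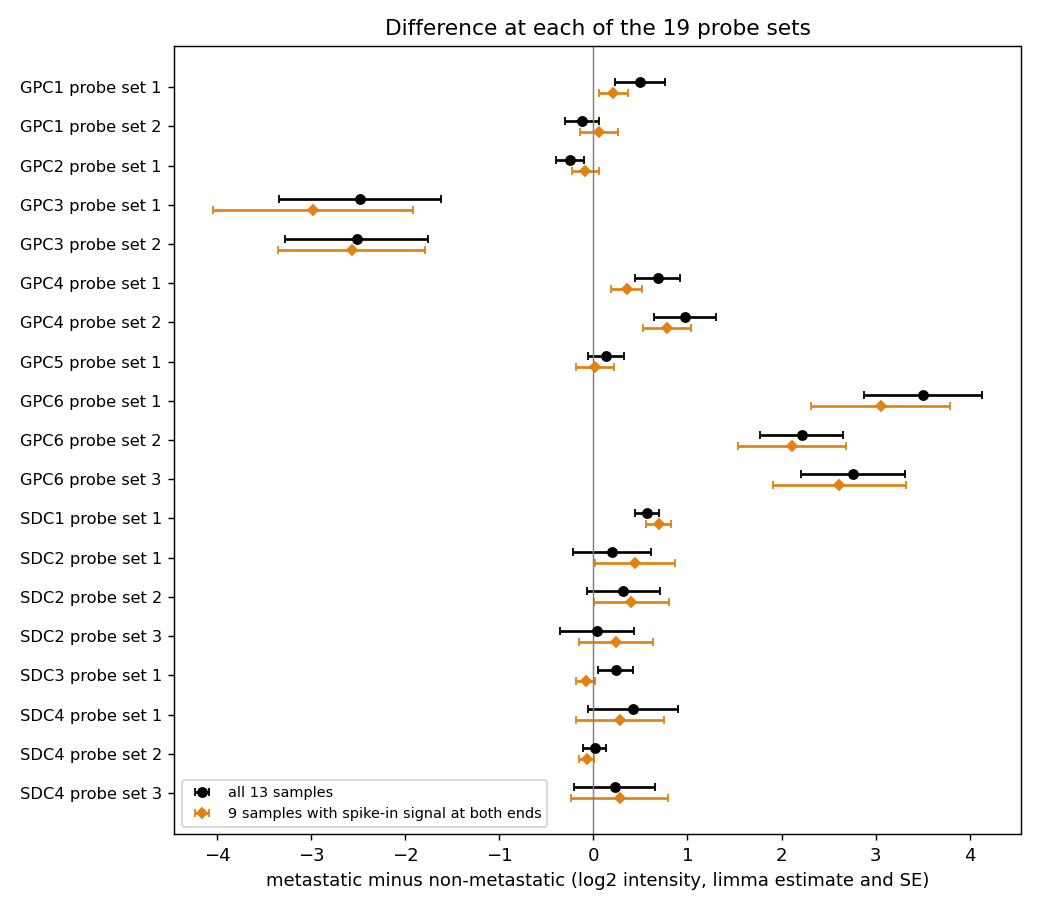
Metastatic minus non-metastatic difference in log2 intensity (limma estimate with SE) at each of the 19 probe sets, over all 13 samples in black and within the 9 samples with spike-in signal at both ends in orange. All 3 probe sets of GPC6 lie above 2 and both of GPC3 below -2, while the other genes lie between -0.25 and 0.97 over all samples.

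Counted together over all samples, 4 of the 19 probe sets were higher and 0 lower past an adjusted p of 0.05 (limma), where 4.90% of all probe sets passed, 1.56% higher and 3.34% lower. At an unadjusted p of 0.05 the counts were 6 higher and 2 lower, where 23.7% of all probe sets passed. The 4 were the 3 probe sets of GPC6 and that of SDC1, which are the values that led to the choice of the family, so nothing is read from the count. The same 4 probe sets had groups that did not overlap, as 1.18% of all probe sets did with metastatic samples higher and 1.45% with metastatic samples lower. Within the 9 samples with spike-in signal at both ends the same 4 did not overlap, where the shares of all probe sets were 4.39% higher and 4.94% lower. For these 4 this had to follow, because the 9 samples are a part of the 13, so it is no second check. In those 9 samples 1 of the 19 was past an adjusted p of 0.05, the probe set of SDC1 (1 higher and 0 lower, against 2.78% of all probe sets, 0.578% higher and 2.20% lower), with 5 higher and 2 lower at an unadjusted p of 0.05, where 20.2% of all probe sets passed. SDC1 led to the choice of the family in these same tumours, so nothing is read from this count or from how the counts move between fits. With NM1, NM3 and NM4 left out and NM2 kept, 0 of the 19 passed in limma, where 207 of all probe sets did, and GPC6 differed by 2.88. At an unadjusted p of 0.05 the counts were then 6 higher and 1 lower, where 14.4% of all probe sets passed. The count of 4 was 3 without MET1, without MET4 and after median centring, SDC1 being the one lost, and in the 9 samples the count was 0 without MET1, MET3, NM6, NM7 or NM8. The median difference of the 19 probe sets was 0.24, against 0.05 over all probe sets, and 15 of the 19 were positive, as were 55.1% of all probe sets. The 19 include the 4 that led to the choice of the family and several probe sets of 1 gene, so nothing is read from these values either.

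The spike-in sets of non-metastatic tumours give a comparison that does not use outcome, between NM5 to NM8 with signal at both ends and NM1, NM3 and NM4 without signal. Of the 19 probe sets, 3 were higher in samples with signal and 0 lower (limma), where 21.7% of all probe sets passed, 15.8% higher and 5.85% lower. The members thus passed higher about as often as all probe sets did, so the count is not particular to them. At an unadjusted p of 0.05 the counts were 5 higher and 1 lower, where 37.3% of all probe sets passed. SDC3 was higher by 0.80 ± 0.11 (SE, adjusted p = 0.00520), GPC1 by 0.92 ± 0.24 (SE, adjusted p = 0.0312) and GPC4 by 0.87 ± 0.25 (SE, adjusted p = 0.0453). The 3′ minus 5′ gap of ACTB was also wider in the samples with signal (1.23 to 2.24) than in those without (0.39 to 0.88), and its part in these differences was not tested. With any 1 of these samples left out, 1 to 2 of the 19 passed. Scaling moved this comparison: quantile normalization moved the median of all probe sets to -0.01, against 0.09 as deposited, and median centring to -0.10. All probe sets that passed were 6798 higher and 2513 lower as deposited, 4112 higher and 3797 lower after quantile normalization, and 3559 higher and 5688 lower after median centring. The members that passed were 1 higher and 2 lower under either scaling. SDC3 passed under both (0.64 and 0.61), and the main probe sets of GPC1 and GPC4 under neither. SDC1 then passed lower (-0.45 and -0.48, adjusted p = 0.0445 and 0.0369), against -0.29 (adjusted p = 0.157) as deposited, and so did the second probe set of GPC1 (-0.57 and -0.59, adjusted p = 0.0317 and 0.0292). For GPC1, GPC4 and SDC3 the differences between metastatic and non-metastatic tumours were smaller within the 9 samples with spike-in signal at both ends (0.21, 0.35 and -0.08) than over all samples (0.49, 0.68 and 0.24), and the difference between these pairs of values was not tested. The 9 samples leave out NM1, NM3 and NM4, which were low for these genes, so this is not a result apart from the comparison above.

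The genes whose levels followed GPC6 most closely over the 13 samples, among 9295 genes at or above the median level, were SHCBP1, GPSM2, FAF1, NDE1 and CENPT, with Pearson r of 0.959, 0.953, 0.951, 0.945 and 0.943. After group means were subtracted the correlations were 0.866, 0.861, 0.850, 0.845 and 0.827. SDC1 was followed less closely, by UBE2A (r = 0.874), SCD, PCBD2, CBX5 and FRYL (0.808 to 0.832), and by 0.391 to 0.673 after group means were subtracted. These are descriptions over samples that form 2 groups, and in each sample both genes of a pair were read on the same array.

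The enzymes, partners and ligands of these proteoglycans were read from 8 lists, of which 93 of 110 genes were measured. At each gene's probe set of highest mean, 3 passed higher (3.23%) and 10 lower (10.8%) in metastatic tumours, where 1.65% of all named genes passed higher and 3.70% lower (limma). The lists were chosen with earlier results of these data known, so these shares are a description, and the p-values of the listed genes carry the same limit. The median difference of the 93 genes was 0.01, against 0.05 over all named genes. At an unadjusted p of 0.05, 15 were higher and 18 lower, where 1808 of all 15115 named genes were higher and 1808 lower (23.9% together), the share to set beside the unadjusted counts of the single lists. Within the 9 samples with spike-in signal at both ends 1 passed higher and 4 lower, where 0.578% of all probe sets were higher and 2.20% lower. With NM1, NM3 and NM4 left out, CDON was the 1 gene that passed (-0.96, adjusted p = 0.0382). Quantile normalization ended the calls of CASK (-0.82, adjusted p = 0.0590), GLCE (0.60, adjusted p = 0.0826), SGSH (-0.35, adjusted p = 0.0748) and TGFBR3 (-1.37, adjusted p = 0.0667). All values of HS3ST5 and SPOCK1 lay below 7.16, so these 2 calls are counted but not read as changes of their transcripts.

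Of the 11 measured genes that link and polymerize the chain, 0 rose and EXT2 fell, with 1 higher and 2 lower at an unadjusted p of 0.05. EXT1 and EXT2 form the polymerase that lengthens heparan sulfate. EXT2 measured 9.26 to 10.35 in metastatic and 10.44 to 10.91 in non-metastatic samples, without overlap, a difference of -1.004 ± 0.17 (SE, limma adjusted p = 0.00664) that was -1.02 within the 9 samples (adjusted p = 0.0423). Its other probe set also passed (-0.92). Among replicates 1 to 5 of both groups EXT2 passed without a replicate block (-1.01, limma adjusted p = 0.0356) and not with it (adjusted p = 0.0590). EXT1 differed by 0.56 ± 0.31 (SE, adjusted p = 0.281), at 9.39 to 11.46 in metastatic and 9.07 to 10.08 in non-metastatic samples.

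Of 10 measured genes of sulfation and epimerization, GLCE rose and HS3ST5 passed lower, with 3 higher and 1 lower at an unadjusted p of 0.05. GLCE, the epimerase that makes iduronic acid, measured 6.98 to 7.63 in metastatic and 6.15 to 6.98 in non-metastatic samples, the non-metastatic values all below 7.16. It differed by 0.61 ± 0.16 (SE, limma adjusted p = 0.0455), and by 0.56 within the 9 samples (adjusted p = 0.0764). It passed in 2 of the 13 fits without 1 sample, and its other 2 probe sets did not pass (0.21 and 0.45). HS3ST5, a glucosaminyl 3-O-sulfotransferase, measured 3.12 to 4.54 in metastatic and 4.37 to 6.61 in non-metastatic samples. All values lay below 7.16, so the array does not tell HS3ST5 apart from a transcript without signal, though the probe set passed over all samples (adjusted p = 0.0163) and within the 9 samples (adjusted p = 0.0220). NDST2, an N-deacetylase and sulfotransferase, differed by -0.20 and HS2ST1, the 2-O-sulfotransferase, by 0.34, without passing. Of 7 genes of precursor supply 0 passed, with 1 higher and 0 lower at an unadjusted p of 0.05.

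Of 12 measured genes of editing, shedding and release, SULF2 rose and the gelatinase MMP2 fell (-1.39, limma adjusted p = 0.0265, and -1.23 without passing within the 9 samples). Of the other 2 probe sets of MMP2, 1 passed (-1.53) and 1 did not (0.52). SULF2 is an extracellular sulfatase that removes 6-O-sulfate groups from finished chains. It measured 9.73 to 10.72 in metastatic and 6.70 to 9.27 in non-metastatic samples, without overlap, a difference of 2.16 ± 0.43 (SE, limma adjusted p = 0.0143) that was 1.65 within the 9 samples (adjusted p = 0.0240). It also differed by 1.56 between non-metastatic samples with and without spike-in signal (adjusted p = 0.0227). Of its other 4 probe sets 1 passed (1.43), and the remaining 3 differed by -0.01, 0.58 and 0.43. SULF1, its relative, differed by 1.40 ± 0.46 (SE, adjusted p = 0.0921), at 6.43 to 8.95 in metastatic and 5.48 to 7.49 in non-metastatic samples, and by 1.06 between non-metastatic samples with and without spike-in signal (adjusted p = 0.0354). HPSE, the heparanase that cuts the chains, differed by -0.19, NOTUM, an esterase, by -0.64, and FURIN, a protease that cleaves glypican precursors, by 0.06 (-0.04 within the 9 samples), all without passing. All values of HPSE and NOTUM lay at or below 7.16, so the array does not tell these 2 apart from transcripts without signal.

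Of 9 other measured heparan sulfate proteoglycans, SPOCK1 passed higher and TGFBR3 fell. TGFBR3, or betaglycan, is a coreceptor for transforming growth factor beta. It averaged 8.83 ± 0.90 (SD, n = 5) in metastatic and 10.37 ± 0.68 (SD, n = 8) in non-metastatic tumours, a difference of -1.54 ± 0.39 (SE, limma adjusted p = 0.0398) that passed in 3 of the 13 fits without 1 sample and not within the 9 samples (-1.77, adjusted p = 0.0545). Of its other 2 probe sets, 1 passed (-1.18) and 1 differed by 0.0035. SPOCK1, a testican, measured 6.02 to 6.51 in metastatic and 4.94 to 5.92 in non-metastatic samples, all below 7.16, so the array does not tell it apart from a transcript without signal. Its probe set passed over all samples (adjusted p = 0.0429), in 4 of the 13 such fits and not within the 9 samples (adjusted p = 0.0641). The basement membrane proteoglycans HSPG2 and AGRN differed by 0.59 and 0.20 without passing. Of 6 genes of lysosomal breakdown, 0 rose and the sulfatase SGSH fell by 0.42 ± 0.11 (SE, adjusted p = 0.0373), a call kept in 4 of the 13 fits without 1 sample and not within the 9 samples (-0.38, adjusted p = 0.0698).

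Of 14 measured partners of syndecans 0 rose and 2 fell, with 1 higher and 3 lower at an unadjusted p of 0.05. CASK, a scaffold that binds the tail of syndecans, averaged 9.23 ± 0.50 (SD, n = 5) in metastatic and 10.23 ± 0.31 (SD, n = 8) in non-metastatic tumours, and differed by -0.999 ± 0.21 (SE, limma adjusted p = 0.0195). All 3 of its probe sets passed. CTTN, the actin-binding protein cortactin, averaged 11.03 ± 0.37 and 11.80 ± 0.16 (SD) in these groups and differed by -0.76 ± 0.15 (SE, adjusted p = 0.0158), while its other 3 probe sets did not pass (-0.66, -0.76 and 0.03). Both genes passed in all 13 fits without 1 sample and neither within the 9 samples (-0.81 and -0.71, adjusted p = 0.138 and 0.0753). CTTN also did not pass in the fits of replicates 1 to 5 of both groups (-0.77, adjusted p = 0.0673 with a replicate block and 0.0578 without).

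Of 24 measured ligands and receptors that use glypicans or syndecans 0 rose and 3 fell, with 4 higher and 7 lower at an unadjusted p of 0.05. CDON, a hedgehog coreceptor, measured 6.62 to 6.89 in metastatic and 7.26 to 8.64 in non-metastatic samples, a difference of -1.21 ± 0.20 (SE, limma adjusted p = 0.00582) that passed within the 9 samples (-0.996, adjusted p = 0.0220). Its 5 metastatic values lay below 7.16, so the size is not exact. HHIP, which binds hedgehog ligands, measured 4.06 to 5.94 in metastatic and 5.92 to 11.38 in non-metastatic samples. It fell by 4.25 ± 0.87 (SE, adjusted p = 0.0164) and passed there too (-5.08, adjusted p = 0.00477). Here too the 5 metastatic values lay below 7.16 and the sizes are not exact. HHIP did not pass in the fits of replicates 1 to 5 of both groups (-3.59, limma adjusted p = 0.0946 with a replicate block and 0.0643 without). The fibroblast growth factor receptor FGFR2 fell by 3.32 ± 0.83 (SE, adjusted p = 0.0359), with its other 2 probe sets also past the threshold. It measured 5.26 to 10.31 in metastatic and 7.87 to 12.28 in non-metastatic samples, passed in 3 of the 13 fits without 1 sample, and did not pass within the 9 samples (-3.51, adjusted p = 0.0742).

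**Figure D4:**
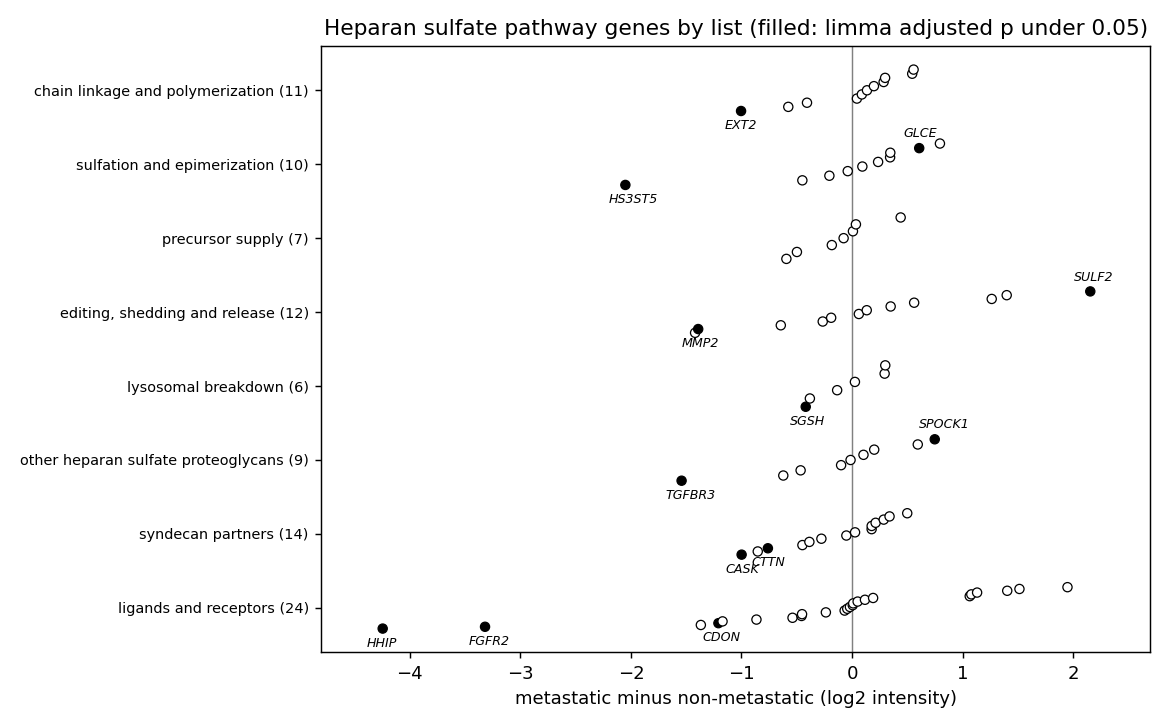
Metastatic minus non-metastatic difference in log2 intensity of each measured gene of the 8 lists, with the number of genes in brackets; filled points passed an adjusted p of 0.05 (limma, 13 samples). SULF2, SPOCK1 and GLCE are the filled points above 0, and 10 filled points lie below 0.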

How the data were processed

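The values the authors deposited for the 13 arrays were taken as log2 intensities because they run from 0 to 14.33. How the background was corrected and the arrays normalized is not given in the sources used here. Per the labels' protocols, total RNA was extracted with an RNeasy kit and labelled with biotin in 1 cycle of 3′ in vitro transcription. Values were used as deposited, and 111 control probe sets were left out of the 43035. In the platform annotation 29264 probe sets had 1 gene symbol, 439 had several and 13332 had none. The number of arrays limits the precision.

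The data were fitted by limma 3.58.1 in R 4.3.3 (lmFit, eBayes) on the whole table with no covariate beside the group. Tests were two-sided, p-values were adjusted by Benjamini-Hochberg across all 42924 probe sets, and 0.05 was the threshold. A gene stands at its probe set of highest mean. Spike-in sets were read from the dap, lys, phe and thr controls, with a mean 3′ value below 6 as no signal and a 3′ minus 5′ gap above 2 as signal at the 3′ end. The fit was tested on simulated data. Plots and correlations used Python 3.11.15, pandas 2.3.3 and matplotlib 3.10.9.

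The members and lists were chosen with earlier results of these data known. Pathway genes are named where they passed (up to 6 a list) or were fixed by name; NDST1, HS6ST1 and SDCBP of the fixed names were not matched to a probe set with that single symbol. Likeness was Pearson's r over 13 samples, the 5 highest named. Replicate numbers 1 to 5 occur in both groups but same-numbered tumours did not deviate together (correlations of -0.03 to 0.09), so the numbers were not used as pairs. Alternatives were another scaling, a filter on dim probe sets, a variance trend, array weights, covariates, a replicate block, another probe set per gene and fewer samples.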

Additional observations from a re-analysis of the deposited data

Results flagged for a closer look

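In 5 of the 82 groups of values examined, 1 sample lay far from the others of its group, where chance gives about 1 in 20. The second probe set of GPC1 measured 6.50 in MET4, with the next metastatic value at 5.65, and 6.39 in NM1, with the next non-metastatic value at 5.96. SDC3 measured 7.74 in MET1, with the next metastatic value at 7.98. In NM2, the sample with the spike-in gap of 3.35, GLCE measured 6.15, the next non-metastatic value being 6.71, and FGFR2 measured 7.87, the next being 10.92.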

How the results depend on the processing

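Over all samples 2104 probe sets passed, against 4011 with array weights, 1367 with the ACTB value as a covariate, 1192 within the 9 samples with spike-in signal at both ends, 207 without NM1, NM3 and NM4, and 856 (without MET1) to 4478 (without NM2) with 1 sample left out. The 4 member probe sets became 2 among probe sets at or above the median level, where 2 of GPC6 were not tested, 1 within the 9 samples, 0 without NM1, NM3 and NM4, and 3 to 6 with 1 sample left out. The 13 pathway genes became 5 within the 9 samples, 1 without NM1, NM3 and NM4, and 7 to 15 with 1 sample left out. With 1 sample left out, the 3 member probe sets that differed between the spike-in sets of non-metastatic samples became 1 to 2, and the 1 within the 9 samples became 0 to 2 (GPC3 also passed without MET5). Replicate numbers did not pair the samples, and a replicate block over numbers 1 to 5 gave 733 probe sets, 2 members and 8 pathway genes, against 1185, 3 and 8 in the same samples without it.

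Differences near 0 changed sign. GPC5 was -0.032 without NM1, NM3 and NM4. SDC2 was -0.0591 with the ACTB covariate, -0.006 with and without the replicate block in replicates 1 to 5, and -0.0037 to 0.5138 with 1 sample left out. SDC3 was -0.084 with the spike-in set as a block and within the 9 samples, which give the same estimate by design, and -0.054 without NM1, NM3 and NM4. FURIN was -0.042, -0.042 and -0.046 in these fits. The cause was not tested. Fits without NM1, NM3 and NM4, and those of replicates 1 to 5 without a block, were added after seeing the data. With the ACTB covariate FGFR2, SGSH, SPOCK1 and TGFBR3 did not pass, with median centring GLCE did not, and with the spike-in set as a block CASK, CTTN, MMP2 and SGSH did not.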
